A study of Mus musculus with 6 samples.

Results

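The genes described here encode the collagens, the laminins and the integrins, the proteins from which cells build and grip their extracellular matrix. Members were chosen by gene symbol alone: Col followed by a number, a and a number, Lama, Lamb or Lamc followed by a digit, and Itga or Itgb followed by digits or letters. From the Itga and Itgb names, 5 that carry bp or l1 were left out, since they are integrin-binding or integrin-like proteins and not subunits. The rule found 81 genes among 33924 symbols, with 43 collagen, 11 laminin and 27 integrin genes. Of the 81, 53 had enough reads to be tested (26 collagen, 9 laminin and 18 integrin genes), 28 did not, and Col19a1 had no read in any library.

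Collagens are trimers wound from alpha chains. Fibrillar types form cables, network types such as collagen IV form the sheet of the basement membrane, and others sit on fibrils or span the cell membrane. Laminins are cross-shaped trimers of 1 alpha, 1 beta and 1 gamma chain, and they are the first basement membrane proteins to assemble on early embryonic cells. Integrins are receptors of 1 alpha and 1 beta subunit that bind these ligands outside the cell and link them to actin inside. Mouse embryonic stem cells are known to make laminins and collagen IV themselves and to attach to them through integrins with the beta 1 subunit.

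RNA was sequenced from E14 cells, an established line of mouse embryonic stem cells, in 3 libraries labelled Rif1-KO and 3 labelled control. Rif1 encodes a chromatin protein of replication timing, break repair and silencing, and the series asks what its loss does to gene expression. All 6 share the same labels for line, medium (2i, on a gelatin coating) and 4-hydroxytamoxifen (4-OHT), given at 0.1 µM for 2 days and then withdrawn for 1 day. The column names differ, with TAM on one side (Rif1-KO) and 2i on the other (control), so a difference in drug or medium between the groups cannot be told apart from one in genotype. The labels name no clone, promoter or deleted exon, and they do not say whether replicates were separate cultures. The p-values therefore reflect the spread of these libraries, which may be technical.

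Libraries held 8383632 to 10980777 counts. The correlation of log CPM over tested genes was 0.993 to 0.995 within groups and 0.968 to 0.969 between them. Rif1 itself had 602, 604 and 664 CPM (read counts scaled to a common library size, with TMM) in the Rif1-KO-labelled libraries, against 673, 657 and 700.1 CPM in control (log2 fold change −0.12 ± 0.05, adjusted p = 0.0509). The groups overlapped and the count over the whole gene did not show a deletion, so the groups are called by their labels. Genes were tested with edgeR's quasi-likelihood test over all 14250 genes with enough reads, and genes rose or fell where the adjusted p (Benjamini-Hochberg) was under 0.05. Over all tested genes 26.1% rose and 24.8% fell, so 50.9% were called in either direction, which is the background for every count below. All 9 markers of pluripotent stem cells were detected in every library, and 4 of them rose, 2 fell and 3 did not pass. Pou5f1 averaged 656 ± 33.1 CPM in the Rif1-KO-labelled libraries and 690.0 ± 32.8 CPM in control (SD, n = 3 each, as for every mean below) and did not pass. Sox2 fell, with 469 ± 19.4 CPM in the Rif1-KO-labelled libraries and 683 ± 31.8 CPM in control (log2 fold change −0.54 ± 0.05, adjusted p = 1.78e-08), and Fbxo15 rose, with 411 ± 0.256 CPM in the Rif1-KO-labelled libraries and 259 ± 4.201 CPM in control (log2 fold change 0.66 ± 0.04, adjusted p = 1.71e-10). The part of these changes in the results below was not tested. In bulk RNA, fewer cells of a type and less RNA per cell cannot be told apart.

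Collagen IV genes lie head to head in pairs, each pair transcribed outward on opposite strands. Promoter windows of 250 bases before to 50 bases after the annotated start are shown for both collagen IV pairs with reads above the filter, because both hold chains of 1 collagen type. The windows come from RefSeq on GRCm38.p6, whereas the submitters' processing notes name mm9, so the coordinates belong to the reference alone. Col4a1 (chr8:11312777-11313076, minus strand) and Col4a2 (chr8:11312555-11312854, plus strand) have annotated starts 21 bases apart, and their windows share 78 bases. Col4a6 (chrX:141474027-141474326, minus strand) and Col4a5 (chrX:141475169-141475468, plus strand) have starts 1343 bases apart and share none. Capitals mark the GC box (GGGCGG, or CCGCCC on the other strand) and the CCAAT box (CCAAT, or ATTGG on the other strand), and each sequence runs 5′ to 3′ on the gene's own strand.
Col4a1: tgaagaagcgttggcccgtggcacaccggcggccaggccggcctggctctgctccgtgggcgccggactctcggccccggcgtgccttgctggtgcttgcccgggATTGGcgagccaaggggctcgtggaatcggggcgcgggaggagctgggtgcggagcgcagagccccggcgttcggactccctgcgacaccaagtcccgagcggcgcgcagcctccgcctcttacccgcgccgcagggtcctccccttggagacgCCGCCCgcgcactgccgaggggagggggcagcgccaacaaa
Col4a2: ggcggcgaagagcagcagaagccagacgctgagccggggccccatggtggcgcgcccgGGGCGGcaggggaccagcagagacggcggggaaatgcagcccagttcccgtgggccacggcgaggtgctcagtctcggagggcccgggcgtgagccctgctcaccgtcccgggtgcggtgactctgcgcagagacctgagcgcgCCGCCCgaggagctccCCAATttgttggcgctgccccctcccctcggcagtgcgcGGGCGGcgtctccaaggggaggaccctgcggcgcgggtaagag
Col4a5: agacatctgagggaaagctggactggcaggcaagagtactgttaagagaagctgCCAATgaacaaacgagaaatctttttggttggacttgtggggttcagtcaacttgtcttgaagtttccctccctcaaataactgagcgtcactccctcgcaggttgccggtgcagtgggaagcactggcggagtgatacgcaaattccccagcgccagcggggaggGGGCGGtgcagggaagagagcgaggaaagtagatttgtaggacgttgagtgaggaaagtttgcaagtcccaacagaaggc
Col4a6: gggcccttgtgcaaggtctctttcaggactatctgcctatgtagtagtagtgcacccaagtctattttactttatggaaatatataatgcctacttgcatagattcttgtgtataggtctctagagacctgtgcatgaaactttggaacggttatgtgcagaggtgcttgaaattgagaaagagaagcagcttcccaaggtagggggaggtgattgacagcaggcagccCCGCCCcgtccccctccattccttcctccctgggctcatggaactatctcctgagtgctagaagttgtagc

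The Col4a1 and Col4a2 windows had a GC content of 74.0% and 73.7%, with 37 and 33 CpG dinucleotides. The Col4a5 and Col4a6 windows had 52.7% and 48.3%, with 11 and 3 CpG. All 4 windows hold at least 1 GC box, and Col4a6 alone of the 4 holds no CCAAT box. The same windows are shown for the alpha chain with the largest change in CPM, Lama5 (chr2:180225810-180226109, minus strand), and for a pair of beta chains that fill the same place in the trimer, Lamb2 (chr9:108479612-108479911, plus strand) and Lamb1 (chr12:31265043-31265342, plus strand). Lama5 and Lamb2 rose and Lamb1 did not pass, as given below.
Lama5: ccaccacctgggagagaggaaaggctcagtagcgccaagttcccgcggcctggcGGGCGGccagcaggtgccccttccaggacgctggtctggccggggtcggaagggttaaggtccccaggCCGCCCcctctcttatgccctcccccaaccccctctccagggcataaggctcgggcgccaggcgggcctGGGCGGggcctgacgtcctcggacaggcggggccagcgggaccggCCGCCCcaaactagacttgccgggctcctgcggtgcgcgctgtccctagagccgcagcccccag
Lamb2: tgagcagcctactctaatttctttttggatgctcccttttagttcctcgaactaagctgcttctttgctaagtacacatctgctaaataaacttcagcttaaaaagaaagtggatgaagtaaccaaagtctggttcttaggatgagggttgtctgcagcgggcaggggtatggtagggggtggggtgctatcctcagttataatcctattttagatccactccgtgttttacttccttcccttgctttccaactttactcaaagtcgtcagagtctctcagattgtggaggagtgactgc
Lamb1: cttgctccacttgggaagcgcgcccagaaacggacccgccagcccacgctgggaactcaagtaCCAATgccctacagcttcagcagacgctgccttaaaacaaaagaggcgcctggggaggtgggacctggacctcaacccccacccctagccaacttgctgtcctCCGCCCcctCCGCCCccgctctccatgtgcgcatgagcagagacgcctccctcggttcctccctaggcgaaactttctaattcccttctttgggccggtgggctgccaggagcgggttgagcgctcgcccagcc
Lama5 holds 4 GC boxes and Lamb1 2, and Lamb2 holds neither motif. No GC box overlaps a CCAAT box within a window. The GC box of Col4a1 and 1 of those of Col4a2 are the same bases, read on opposite strands in the shared stretch. None of these 7 windows holds TATAAA on either strand. Of the 81 members, 59 matched a window by symbol, with 65 windows in all. A GC box was in 53.9% of the 65 windows, against 35.9% of 32544 windows of all genes, and a CCAAT box in 26.1% against 37.4%. Member windows had a median GC content of 59%, against 53% for all windows. Among members that rose 14 of 21 windows held a GC box, and among tested members that did not pass 12 of 17 did. Of the 2 windows of members that fell 1 did. Of the 25 windows of members that were not tested 8 did (32%), under the 35.9% of all windows. These are matches of letters and not sites.

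Across the 3 families more tested members rose than fell. Among collagen genes 15 rose, 2 fell and 9 did not pass (57.7% and 7.69% of 26). Among laminin genes 5 rose, 1 fell and 3 did not pass (55.6% and 11.1% of 9). Among integrin genes 7 rose and 11 did not pass (38.9% of 18). No integrin gene fell by edgeR's test, by DESeq2, by limma-voom or at an unadjusted p under 0.05. The median log2 fold change of tested members was 0.53 for collagens, 0.41 for laminins and 0.22 for integrins, against 0.00347 over all tested genes. These counts are set beside the background of 26.1% and 24.8% as a description, and the differences between families were not tested. The families were chosen with earlier results of these data known, so the counts are not an independent finding.

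The filter on low counts bears on the collagen count. It asks for at least 1.09 CPM in 3 libraries, and 5 collagen genes (Col5a2, Col4a6, Col12a1, Col25a1 and Col6a2) reached that in all 3 libraries labelled Rif1-KO but not in all 3 control libraries. Of these, 4, all but Col6a2, are among the 15 that rose, and their direction was fixed by the filter. Among members with a mean of at least 5 CPM over all 6 libraries, a level chosen after the data were seen, 9 of 15 collagen genes rose and 2 fell. At that level 4 of 8 laminin genes rose and 1 fell, and 5 of 12 integrin genes rose and none fell, against 26.7% and 28.7% of 11185 genes. The median log2 fold change at that level was 0.28 for collagens, 0.27 for laminins and 0.22 for integrins, against −0.0143 over all genes. The higher collagen median over all tested members thus rests in part on genes of low counts. Among the 53 tested members every library labelled Rif1-KO lay above every control library at 32 genes and below at 4, against 29.4% and 27.8% of all tested genes. The 32 include the 5 collagen genes that reached the filter limit only in the libraries labelled Rif1-KO.

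**Figure D1:**
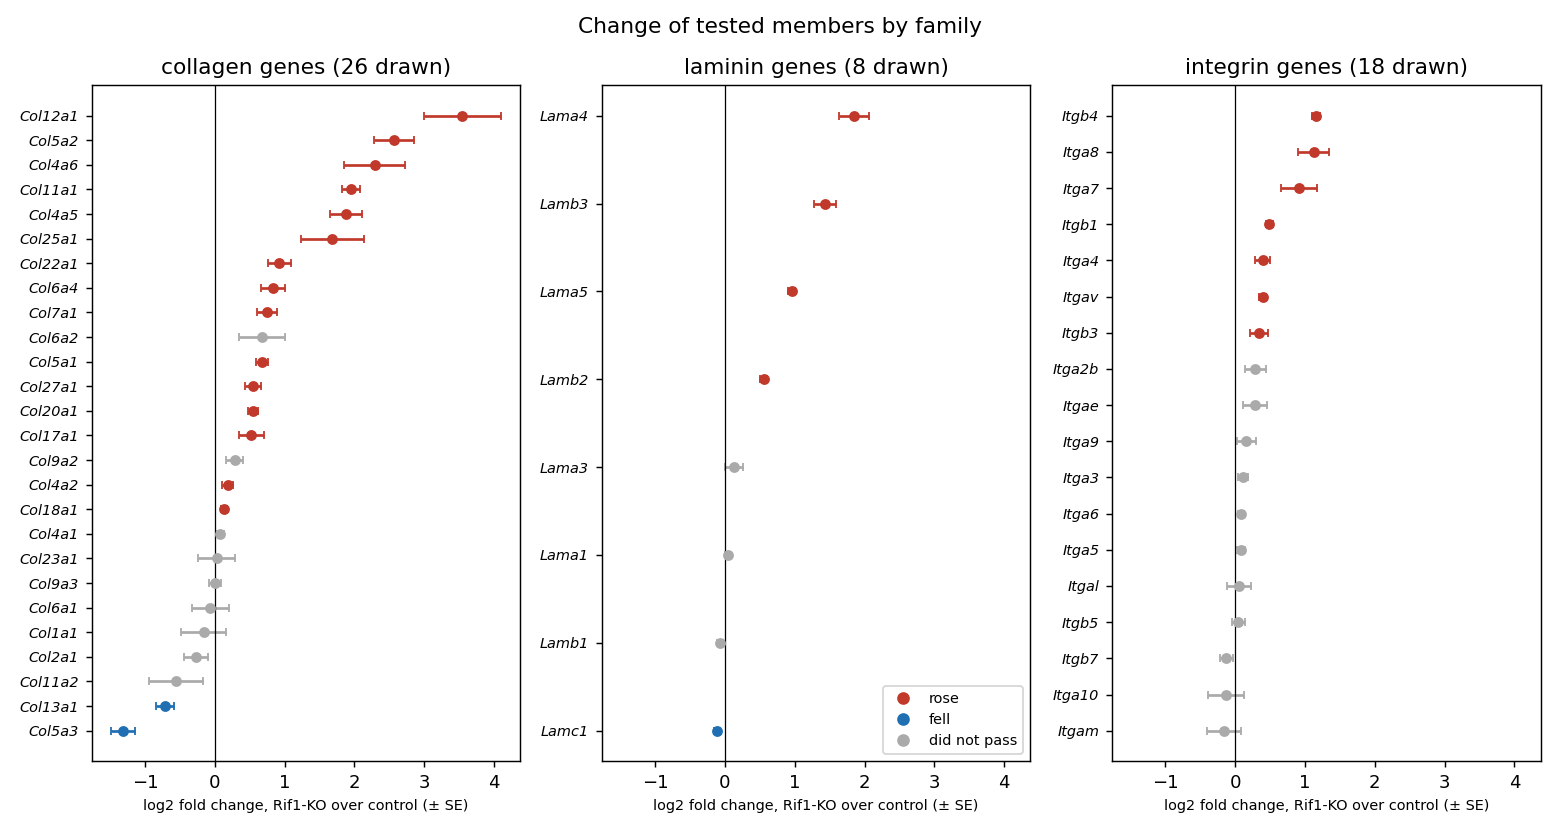
Log2 fold change of 52 tested collagen, laminin and integrin genes (points; bars are standard errors from edgeR's quasi-likelihood test), libraries labelled Rif1-KO over control, 3 libraries each. Red points rose, blue points fell and grey points did not pass; 26 of 52 are red and 3 are blue.

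Of 4 tested collagen IV chains 3 rose and 1 did not pass. Col4a1 had 58.9, 64.1 and 63.7 CPM in the Rif1-KO-labelled libraries, against 61.5, 57.7 and 58.3 CPM in control, and Col4a1, the most abundant chain of this network collagen, did not pass (log2 fold change 0.07 ± 0.06, adjusted p = 0.344). Col4a2 had 44.4, 45.2 and 39.2 CPM in the Rif1-KO-labelled libraries, against 36.4, 38.4 and 38.9 CPM in control, so the groups did not overlap although 1 library labelled Rif1-KO lay just above the highest control library (log2 fold change 0.18 ± 0.07, adjusted p = 0.0417). The Col4a2 call was lost in 7 of 16 alternatives, given here and for later genes with the adjusted p in brackets: no filter on low counts (0.061) and DESeq2 test (0.138), and without control replicate 1 (0.127), control replicate 2 (0.0678), control replicate 3 (0.0697), Rif1-KO replicate 1 (0.143) and Rif1-KO replicate 2 (0.166). The X-linked pair had larger fitted fold changes, and the difference between the pairs was not tested. Col4a5 had 4.97, 5.56 and 4.59 CPM in the Rif1-KO-labelled libraries, against 1.41, 1.58 and 1.11 CPM in control (log2 fold change 1.88 ± 0.23, adjusted p = 1.03e-06). Col4a6 had 1.99, 1.21 and 1.31 CPM in the Rif1-KO-labelled libraries, against 0.216, 0.364 and 0.332 CPM in control (log2 fold change 2.29 ± 0.44, adjusted p = 0.000212). All 3 libraries labelled Rif1-KO were above all control libraries for both chains, but the direction of Col4a6 was fixed by the filter, and its values rest on 46 and 8 counts. Col4a5 and Col4a6 remained minor chains: per kb of exons Col4a1 stood at 8.34 ± 0.386 CPM per kb in the Rif1-KO-labelled libraries and 7.93 ± 0.275 CPM per kb in control, and Col4a5 at 0.750 ± 0.0722 CPM per kb in the Rif1-KO-labelled libraries and 0.203 ± 0.0356 CPM per kb in control. The third pair, Col4a3 and Col4a4, was not tested, with 8 and 7 counts in the Rif1-KO-labelled libraries and 9 and 7 in control.

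Of 8 tested fibrillar collagen genes 4 rose, 1 fell and 3 did not pass. Among them are chains of collagens V and XI, which set the width of fibrils. Col11a1 had 20.9, 17.6 and 20.6 CPM in the Rif1-KO-labelled libraries, against 4.97, 5.22 and 5.09 CPM in control, about 3.86-fold higher on the means (log2 fold change 1.95 ± 0.13, adjusted p = 1.93e-10). Col5a1 had 39.7, 38.8 and 33.6 CPM in the Rif1-KO-labelled libraries, against 24.7, 22.2 and 23.5 CPM in control (log2 fold change 0.67 ± 0.08, adjusted p = 1.37e-06), with no overlap in either gene. Col5a2 had 3.52, 3.64 and 3.83 CPM in the Rif1-KO-labelled libraries, against 0.541, 0.607 and 0.664 CPM in control (log2 fold change 2.57 ± 0.29, adjusted p = 3.4e-07), a rise whose direction the filter fixed. Col5a3, the third chain of collagen V, went the other way: it had 3.43, 2.83 and 2.95 CPM in the Rif1-KO-labelled libraries, against 8.65, 6.68 and 7.63 CPM in control (log2 fold change −1.31 ± 0.17, adjusted p = 3.25e-06). Among the 53 tested members it had the largest fitted decrease. Col27a1, a fibrillar chain of cartilage, had 15.1, 13.3 and 14.9 CPM in the Rif1-KO-labelled libraries, against 10.7, 8.87 and 9.96 CPM in control (log2 fold change 0.55 ± 0.12, adjusted p = 0.00059).

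The other tested fibrillar chains were low and did not pass. Col1a1, the main chain of collagen I, had 2.80, 1.31 and 2.08 CPM in the Rif1-KO-labelled libraries, against 1.73, 3.64 and 1.77 CPM in control, with overlapping groups (log2 fold change −0.16 ± 0.32, adjusted p = 0.696). Col2a1, the chain of cartilage collagen, averaged 4.72 ± 0.453 CPM in the Rif1-KO-labelled libraries and 5.73 ± 0.848 CPM in control (log2 fold change −0.27 ± 0.17, adjusted p = 0.193), and Col11a2, a second chain of collagen XI, averaged 0.773 ± 0.393 CPM in the Rif1-KO-labelled libraries and 1.13 ± 0.0711 CPM in control (log2 fold change −0.56 ± 0.39, adjusted p = 0.245). Col1a2, Col3a1 and Col24a1 were not tested. Col3a1 had 4 counts in the Rif1-KO-labelled libraries and 5 in control, Col1a2 27 and 9, and Col24a1 9 and 0, at least 2.64-fold higher against a floor of 3 counts over the group. Without the filter, Col24a1 and Col1a2 passed (adjusted p = 0.0175 and 0.0429) and Col3a1 did not (adjusted p = 0.787).

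Among the collagens that lie on fibrils (the FACIT group), Col20a1 was the most abundant of those that rose. Col20a1 had 41.9, 42.6 and 43.3 CPM in the Rif1-KO-labelled libraries, against 30.8, 28.1 and 28.5 CPM in control (log2 fold change 0.55 ± 0.07, adjusted p = 2.33e-06), and the groups were 41.9 CPM and above in the Rif1-KO-labelled libraries and 30.8 CPM and below in control. Col22a1 had 7.05, 8.18 and 8.31 CPM in the Rif1-KO-labelled libraries, against 4.87, 3.40 and 3.98 CPM in control (log2 fold change 0.93 ± 0.17, adjusted p = 0.000112). Col12a1 had 44 counts in the Rif1-KO-labelled libraries and 3 in control, a ratio of 12.9 with an exact 95% interval of 4.14 to 65.04 for counting error only. Col9a3 had 31.1, 36.97 and 30.2 CPM in the Rif1-KO-labelled libraries, against 34.7, 32.4 and 31.1 CPM in control, and this chain of collagen IX, the highest per kb of its group, did not pass (log2 fold change 0.00 ± 0.08, adjusted p = 0.998). Its partner Col9a2 averaged 13.3 ± 1.21 CPM in the Rif1-KO-labelled libraries and 10.9 ± 0.804 CPM in control and missed the threshold (log2 fold change 0.28 ± 0.12, adjusted p = 0.0518), although it passed in 5 of 16 alternatives, one of them without Rif1-KO replicate 1 (0.0474). The remaining chain Col9a1 had 1 count in the Rif1-KO-labelled libraries and 0 in control.

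Collagens of the cell surface and of basement membrane zones included the most abundant collagen gene in these cells. Col18a1, a multiplexin whose end fragment is endostatin, had 248, 242 and 234 CPM in the Rif1-KO-labelled libraries, against 224, 219 and 219 CPM in control. Its libraries did not overlap, but the rise was small (log2 fold change 0.13 ± 0.04, adjusted p = 0.0199) and did not pass in 5 of 16 alternatives: DESeq2 test (0.0505), and without control replicate 2 (0.0528), control replicate 3 (0.0905), Rif1-KO replicate 1 (0.111) and Rif1-KO replicate 2 (0.0607). Per kb it stood at 34.4 ± 1.03 CPM per kb in the Rif1-KO-labelled libraries and 31.4 ± 0.475 CPM per kb in control, the highest level per length of any collagen gene. Col13a1, a transmembrane collagen of adhesion sites, fell, with 6.51, 7.88 and 6.56 CPM in the Rif1-KO-labelled libraries, against 11.7, 11.4 and 11.2 CPM in control (log2 fold change −0.71 ± 0.13, adjusted p = 0.000125). The other transmembrane chains differed: Col25a1 averaged 1.71 ± 0.571 CPM in the Rif1-KO-labelled libraries and 0.523 ± 0.432 CPM in control (log2 fold change 1.68 ± 0.45, adjusted p = 0.00411), a rise whose direction the filter fixed, and Col23a1 averaged 2.40 ± 0.704 CPM in the Rif1-KO-labelled libraries and 2.40 ± 0.569 CPM in control and did not pass (log2 fold change 0.03 ± 0.27, adjusted p = 0.941). Col17a1, the collagen of hemidesmosomes, the junctions that anchor epithelia to laminin, averaged 8.01 ± 1.74 CPM in the Rif1-KO-labelled libraries and 5.55 ± 1.10 CPM in control (log2 fold change 0.52 ± 0.18, adjusted p = 0.0202). Its groups overlapped, and the call was lost in 3 alternatives: DESeq2 test (0.0525), and without control replicate 1 (0.103) and Rif1-KO replicate 3 (0.0993).

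Col7a1, the chain of anchoring fibrils in skin, averaged 8.73 ± 0.778 CPM in the Rif1-KO-labelled libraries and 5.20 ± 0.292 CPM in control (log2 fold change 0.75 ± 0.15, adjusted p = 0.000264). Col6a4, a chain of the beaded filament collagen VI, averaged 6.32 ± 0.256 CPM in the Rif1-KO-labelled libraries and 3.52 ± 0.636 CPM in control (log2 fold change 0.83 ± 0.18, adjusted p = 0.000527), whereas the main chains of that filament, Col6a1 and Col6a2, did not pass (adjusted p = 0.866 and 0.106). The third main chain, Col6a3, had 1 count in the Rif1-KO-labelled libraries and 6 in control. Of the 17 collagen genes that were not tested, Col15a1 had 15 counts in the Rif1-KO-labelled libraries and 1 in control (ratio 13.2, exact 95% interval 2.03 to 556). Col28a1 had 12 and 1 (ratio 10.6, 1.56 to 452). Without the filter both passed (adjusted p = 0.007 and 0.0272). Col6a5, Col6a6, Col8a1, Col8a2, Col10a1, Col14a1 and Col16a1 had 3 to 12 counts in the Rif1-KO-labelled libraries and 0 to 17 in control, and did not pass without the filter.

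**Figure D2:**
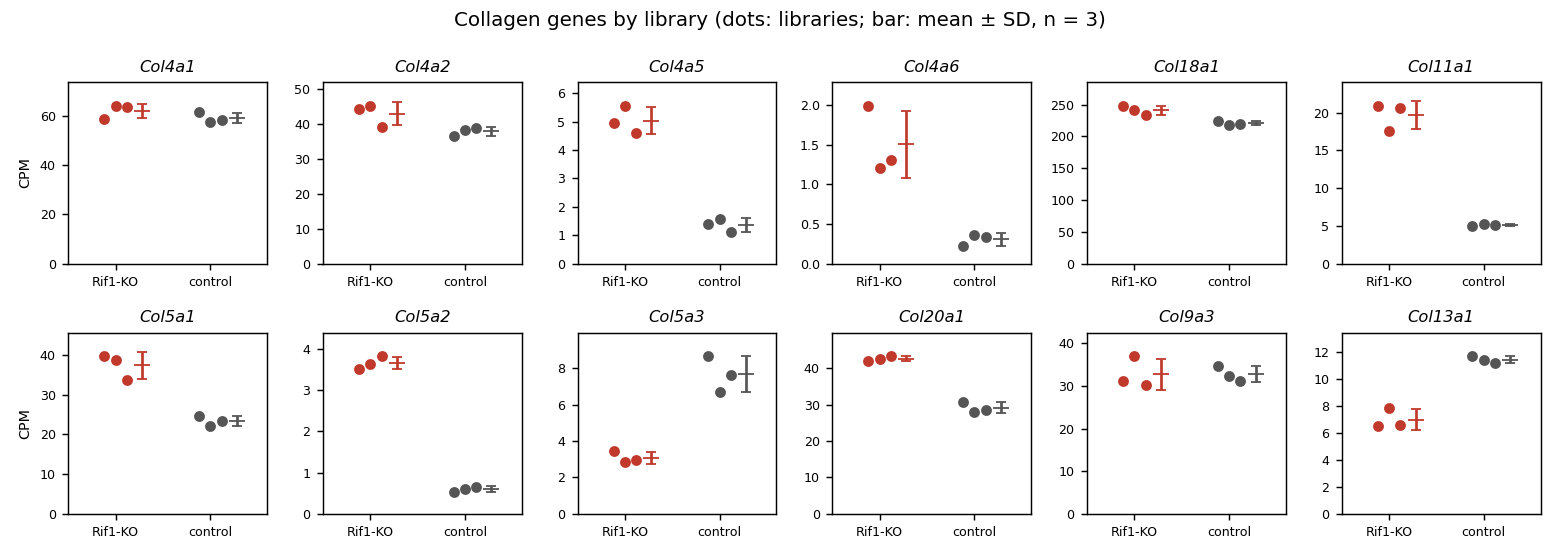
CPM of 12 collagen genes in each library (dots), with the mean and SD of 3 libraries labelled Rif1-KO (red) and 3 control libraries (grey); each vertical axis starts at 0. Col4a5, Col4a6, Col11a1 and Col5a2 show wide gaps between the groups, Col5a3 and Col13a1 lie lower in the libraries labelled Rif1-KO, and Col4a1 and Col9a3 overlap.

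Laminin genes held the largest single change by amount of RNA among the members. Lama5, the alpha chain of the laminins that support stem cell attachment, had 969.5, 949 and 904 CPM in the Rif1-KO-labelled libraries, against 518, 449 and 488 CPM in control. The lowest library labelled Rif1-KO was far above the highest control library, and the mean was 1.94-fold higher (log2 fold change 0.96 ± 0.05, adjusted p = 1.43e-11). Lama1, the alpha chain of the first embryonic laminin, had 364, 344 and 362 CPM in the Rif1-KO-labelled libraries, against 358, 337 and 347 CPM in control, with overlapping groups (log2 fold change 0.04 ± 0.05, adjusted p = 0.487). Both alpha chains join the same beta and gamma chains. Lama4, an alpha chain of vessels and nerve, was low: it had 6.78, 5.76 and 6.78 CPM in the Rif1-KO-labelled libraries, against 2.38, 1.46 and 1.44 CPM in control (log2 fold change 1.85 ± 0.22, adjusted p = 5.87e-07), with no overlap. Lama3, the alpha chain of epithelial laminin, averaged 10.3 ± 0.472 CPM in the Rif1-KO-labelled libraries and 9.36 ± 0.639 CPM in control and did not pass (log2 fold change 0.13 ± 0.12, adjusted p = 0.396). Lama2, of muscle, was not tested, with 32 counts in the Rif1-KO-labelled libraries and 14 in control.

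Among beta chains a like contrast was seen. Lamb2 had 173, 165 and 163 CPM in the Rif1-KO-labelled libraries, against 116, 113 and 113 CPM in control (log2 fold change 0.55 ± 0.05, adjusted p = 8.63e-09). Lamb1 had 133, 135 and 132 CPM in the Rif1-KO-labelled libraries, against 142, 136 and 141 CPM in control, so that its libraries labelled Rif1-KO lay below the control libraries by a margin that did not pass (log2 fold change −0.07 ± 0.05, adjusted p = 0.211). Lamb2 is the beta chain of muscle, nerve and kidney filters, and Lamb1 that of early embryos. Lamb3 had 16.8, 16.6 and 15.97 CPM in the Rif1-KO-labelled libraries, against 8.33, 5.47 and 4.31 CPM in control (log2 fold change 1.44 ± 0.16, adjusted p = 2.65e-07). Lamb3 encodes the beta chain that joins with Lama3 in the epithelial laminin bound at hemidesmosomes, and it rose with no overlap between groups while Lama3 did not pass. The common gamma chain Lamc1 had 662, 650.2 and 679 CPM in the Rif1-KO-labelled libraries, against 713, 714 and 722 CPM in control. That decrease was small (log2 fold change −0.11 ± 0.04, adjusted p = 0.0417) and did not pass in 8 of 16 alternatives: library totals, no scaling (0.0759), offset for GC content and length (0.0772) and replicate block with offset for GC content and length (0.0756), and without control replicate 1 (0.052), control replicate 2 (0.0525), control replicate 3 (0.129), Rif1-KO replicate 1 (0.119) and Rif1-KO replicate 2 (0.134). Lamc3 was not tested, with 27 counts in the Rif1-KO-labelled libraries and 13 in control.

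Set per kb of exons, Lama5 and Lamc1 were the highest laminin chains in both groups. Lama5 stood at 82.6 ± 2.93 CPM per kb in the Rif1-KO-labelled libraries and 42.6 ± 3.02 CPM per kb in control, Lamc1 at 80.2 ± 1.72 CPM per kb in the Rif1-KO-labelled libraries and 86.6 ± 0.601 CPM per kb in control, and Lama1 at 36.9 ± 1.12 CPM per kb in the Rif1-KO-labelled libraries and 35.9 ± 1.05 CPM per kb in control. In control Lamc1 was well above every alpha chain, whereas in the Rif1-KO-labelled libraries Lama5 and Lamc1 did not differ beyond their spread. The ratio of Lama5 to Lama1 per kb was 2.26, 2.34 and 2.12 in the Rif1-KO-labelled libraries, against 1.23, 1.13 and 1.20 in control. Lama5 made up 68.5, 69.2 and 67.1% of the summed alpha chain level per kb in the Rif1-KO-labelled libraries, against 54.4, 52.4 and 53.7% in control. Lamb2 made up 64.1, 62.7 and 63.05% of the beta chains in the Rif1-KO-labelled libraries, against 54.9, 56.1 and 55.5% in control. Both shares separated the groups without overlap, and Lama5 alone was 23.9% of the summed CPM of all 81 members in the Rif1-KO-labelled libraries, against 15.3% in control. The level of a chain against another also depends on the exon lengths used, 9.917 kb for Lamb1 and 6.082 kb for Lamb2. In control Lamb1 averaged 139.9 CPM and Lamb2 113.8 CPM, so the Lamb2 majority there rests on these lengths. In the Rif1-KO-labelled libraries Lamb1 averaged 133.2 CPM and Lamb2 166.9 CPM. RNA shares do not give the amounts of assembled trimers.

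**Figure D3:**
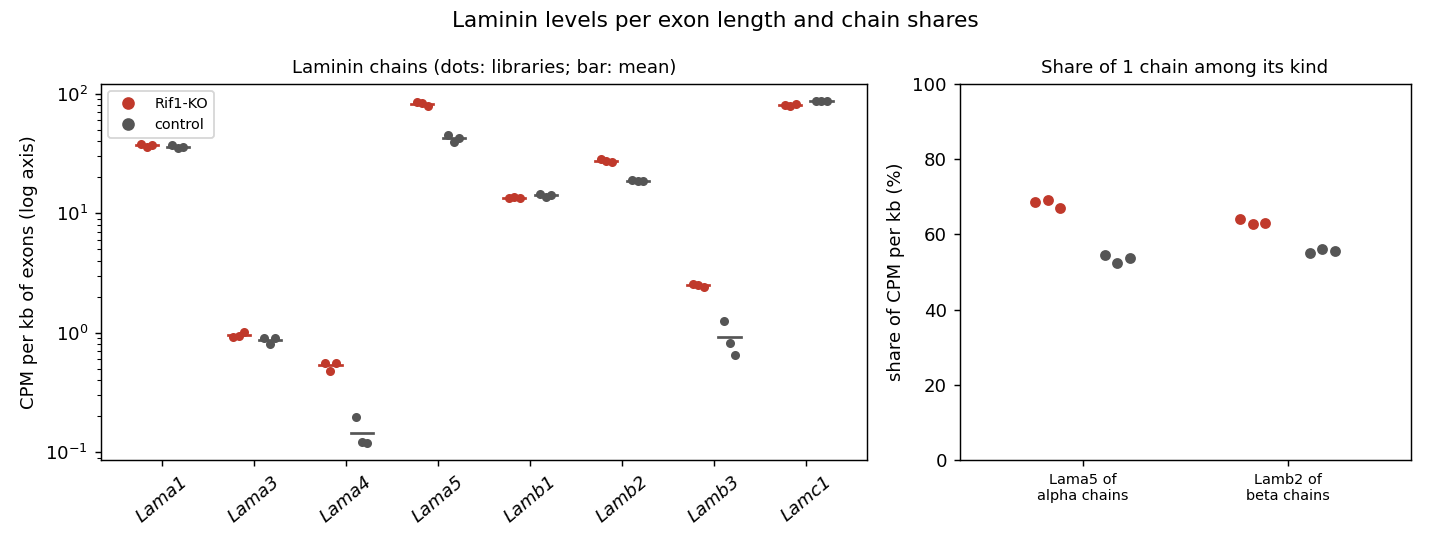
Left, level of 8 laminin genes in CPM per kb of exons on a log axis, with libraries labelled Rif1-KO in red and control in grey (dots are libraries, bars are means of 3). Right, share of Lama5 and Lamb2 in the summed level per kb of their own kind of chain in each library; the Lama5 share was 67.1% to 69.2% in the libraries labelled Rif1-KO and 52.4% to 54.4% in control.

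Integrins that bind laminin included the member with the lowest adjusted p. Itgb4, which pairs with Itga6 alone to bind laminin at hemidesmosomes, had 94.8, 98.7 and 97.1 CPM in the Rif1-KO-labelled libraries, against 42.9, 45.8 and 41.6 CPM in control. Its mean was 2.23-fold higher (log2 fold change 1.16 ± 0.06, adjusted p = 3.16e-12). Itgb1, the subunit shared by most matrix-binding integrins, had 225, 250.2 and 253 CPM in the Rif1-KO-labelled libraries, against 169, 173 and 176 CPM in control (log2 fold change 0.49 ± 0.05, adjusted p = 1.24e-07). Neither gene overlapped between groups, although 7.66% of the Itgb4 exon bases overlap B230344G16Rik on the opposite strand. Itga6, the partner of both in laminin receptors and the most abundant integrin gene in CPM, had 288, 286 and 296 CPM in the Rif1-KO-labelled libraries, against 279.7, 264 and 276 CPM in control. These did not overlap, but the difference was small and did not pass (log2 fold change 0.09 ± 0.04, adjusted p = 0.115). Per kb, the ratio of Itgb4 to Itga6 was 0.423, 0.444 and 0.422 in the Rif1-KO-labelled libraries, against 0.197, 0.224 and 0.194 in control.

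Itga7, the other alpha subunit dedicated to laminin besides Itga3 and Itga6, was low and averaged 3.38 ± 0.976 CPM in the Rif1-KO-labelled libraries and 1.78 ± 0.161 CPM in control (log2 fold change 0.92 ± 0.26, adjusted p = 0.00596). Itga3 averaged 40.1 ± 1.65 CPM in the Rif1-KO-labelled libraries and 36.97 ± 2.54 CPM in control and did not pass (log2 fold change 0.12 ± 0.07, adjusted p = 0.188). The collagen-binding subunits were nearly silent: Itga1, Itga2 and Itga11 were not tested, with 5 to 18 counts in the Rif1-KO-labelled libraries and 0 to 13 in control. Itga10 averaged 2.47 ± 0.807 CPM in the Rif1-KO-labelled libraries and 2.75 ± 0.573 CPM in control with overlapping groups (adjusted p = 0.71). In the reference annotation Itga10 shares 33.5% of its exon bases with another gene model on the same strand, and Itgam 68.7%. Neither of those models is among the counted symbols, so their reads, if any, cannot be told apart from those of Itga10 and Itgam. Both counts are therefore uncertain.

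Receptors for fibronectin and related ligands rose in part. Itgav had 118, 116 and 118 CPM in the Rif1-KO-labelled libraries, against 87.6, 90.4 and 89.9 CPM in control (log2 fold change 0.39 ± 0.05, adjusted p = 1.18e-06). Itga8 had 4.07, 5.25 and 6.45 CPM in the Rif1-KO-labelled libraries, against 2.70, 2.31 and 2.10 CPM in control (log2 fold change 1.12 ± 0.22, adjusted p = 0.000263). Itga4 had 15.1, 13.5 and 15.1 CPM in the Rif1-KO-labelled libraries, against 11.03, 11.4 and 10.8 CPM in control (log2 fold change 0.39 ± 0.11, adjusted p = 0.00523). The groups did not overlap for any of these. All 3 overlap genes on the opposite strand: 8.04% of the Itga4 exon bases with Cerkl, 5.9% of those of Itgav with Gm13684 and 5.05% of those of Itga8 with E030013I19Rik. The Itga4 call was lost in 2 alternatives: offset for GC content and length (0.077) and replicate block with offset for GC content and length (0.0881). Itgb3, a partner of Itgav, averaged 14.8 ± 2.63 CPM in the Rif1-KO-labelled libraries and 11.8 ± 0.962 CPM in control (log2 fold change 0.34 ± 0.13, adjusted p = 0.0338). Its log2 fold change was 0.17 without Rif1-KO replicate 1, and it missed the threshold by DESeq2 test (0.0925) and without control replicate 2 (0.0752), control replicate 3 (0.133) and Rif1-KO replicate 1 (0.292). Itga5, the main fibronectin receptor subunit, had 95.7, 104 and 95.7 CPM in the Rif1-KO-labelled libraries, against 97.1, 92.5 and 89.2 CPM in control and did not pass (log2 fold change 0.08 ± 0.05, adjusted p = 0.212). Itgb5, another partner of Itgav, had 24.1, 25.1 and 20.5 CPM in the Rif1-KO-labelled libraries, against 21.7, 21.99 and 23.9 CPM in control (log2 fold change 0.05 ± 0.09, adjusted p = 0.703). Both of these overlapped between groups. Itga9 and Itga2b did not pass either (adjusted p = 0.343 and 0.121), and Itgb6 and Itgb8 had 4 and 2 counts in the Rif1-KO-labelled libraries and 0 each in control.

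Integrin subunits of leukocytes showed no call in either direction. Itgb7, Itgal, Itgae and Itgam were tested and did not pass by edgeR, by DESeq2, by limma-voom or at an unadjusted p under 0.05. Itgb7 was the highest of them, at 20.2 ± 0.598 CPM in the Rif1-KO-labelled libraries and 22.04 ± 1.58 CPM in control (log2 fold change −0.13 ± 0.09, adjusted p = 0.25). Itgb2, another beta subunit of leukocytes, had 11 counts in the Rif1-KO-labelled libraries and 12 in control. Itgax, Itgad and Itgb2l had at most 4 counts in a group of libraries.

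**Figure D4:**
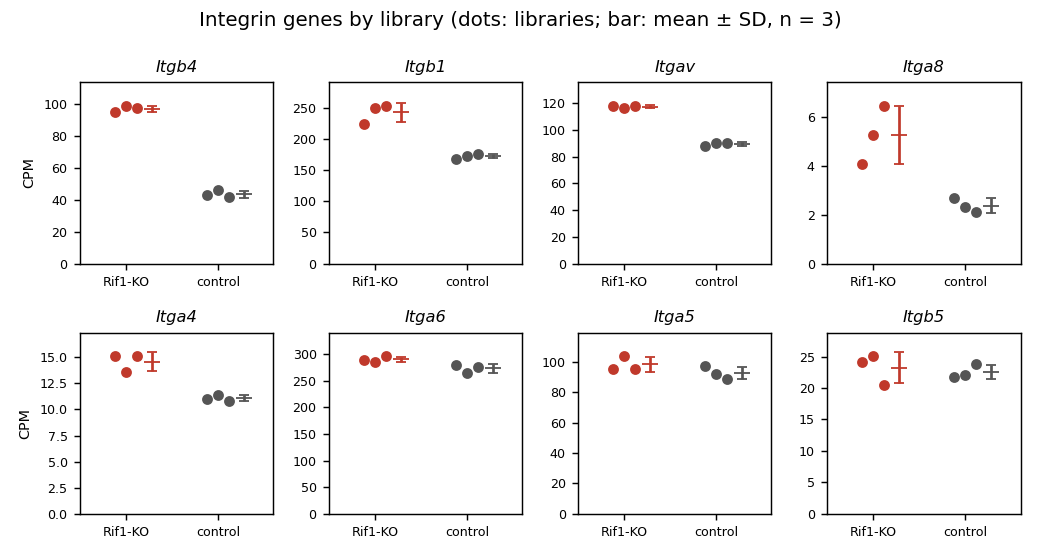
CPM of 8 integrin genes in each library (dots), with the mean and SD of 3 libraries labelled Rif1-KO (red) and 3 control libraries (grey); each vertical axis starts at 0. Itgb4 shows the widest gap, Itga6 a narrow one, and Itga5 and Itgb5 overlap.

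Summed over its genes, each family was higher in the Rif1-KO-labelled libraries. Collagens summed to 579 ± 13.6 CPM in the Rif1-KO-labelled libraries and 487 ± 8.22 CPM in control (SD, n = 3 each). Laminins summed to 2362 ± 37.1 CPM in the Rif1-KO-labelled libraries and 1869 ± 53.7 CPM in control. Integrins summed to 1001 ± 15.99 CPM in the Rif1-KO-labelled libraries and 811 ± 10.03 CPM in control. No sum overlapped between groups. Lama5, Lamc1 and Lama1 were the highest laminin chains, but the rise of the laminin sum lay mostly in Lama5. Lama5 averaged 941 ± 33.3 CPM in the Rif1-KO-labelled libraries and 485 ± 34.4 CPM in control. Lamc1 was slightly lower in the Rif1-KO-labelled libraries, and Lama1 did not pass. These sums are descriptions with no test.

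Genes that work with these families were counted from lists written for this purpose. Of 27 integrin adaptor and adhesion signalling genes 14 rose, 4 fell and 9 did not pass, with a median log2 fold change of 0.20. Tln1 (talin, which activates integrins) averaged 329 ± 9.47 CPM in the Rif1-KO-labelled libraries and 201 ± 2.85 CPM in control, Vcl (vinculin, which ties talin to actin) 124 ± 4.31 CPM in the Rif1-KO-labelled libraries and 73.6 ± 1.90 CPM in control, and Zyx (zyxin, of mature adhesions) 48.8 ± 3.82 CPM in the Rif1-KO-labelled libraries and 20.7 ± 3.10 CPM in control. Tln2, the second talin gene, fell (log2 fold change −0.35 ± 0.05, adjusted p = 1.35e-05), as did Dock1 and Tns3 (log2 fold changes −0.36 ± 0.04 and −0.27 ± 0.05). The kinase Ptk2 and paxillin (Pxn) did not pass (adjusted p = 0.368 and 0.564).

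Of 17 tested genes for other basement membrane and matrix proteins 10 rose, 3 fell and 4 did not pass. Sparc, which binds collagen, averaged 516 ± 9.59 CPM in the Rif1-KO-labelled libraries and 269 ± 10.02 CPM in control. Hspg2 (perlecan) averaged 1574 ± 41.7 CPM in the Rif1-KO-labelled libraries and 1079 ± 6.73 CPM in control and Agrn (agrin), which binds laminin, 701 ± 16.3 CPM in the Rif1-KO-labelled libraries and 501 ± 19.9 CPM in control. Frem2 fell (log2 fold change −0.88 ± 0.07, adjusted p = 6.79e-09), and the nidogens Nid1 and Nid2, which bridge laminin and collagen IV, did not pass (adjusted p = 0.327 and 0.228). Of 22 tested collagen processing enzymes 8 rose, 6 fell and 8 did not pass. P4ha2, a subunit of prolyl 4-hydroxylase, averaged 56.4 ± 3.23 CPM in the Rif1-KO-labelled libraries and 20.5 ± 2.64 CPM in control, Plod2, a lysyl hydroxylase, 207 ± 8.34 CPM in the Rif1-KO-labelled libraries and 119 ± 4.50 CPM in control, and Loxl2, a crosslinking oxidase, 70.1 ± 1.86 CPM in the Rif1-KO-labelled libraries and 31.5 ± 3.66 CPM in control. The chaperone Serpinh1 fell (log2 fold change −0.21 ± 0.07, adjusted p = 0.0137), as did Crtap and P4hb (log2 fold changes −0.41 ± 0.06 and −0.23 ± 0.04). Of 6 tested collagen and laminin receptors other than integrins 3 rose (Bcam, Ddr1 and Cd44), Sdc1 fell and 2 did not pass. The same lists are set beside the background in the bar plot of called shares.

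**Figure D5:**
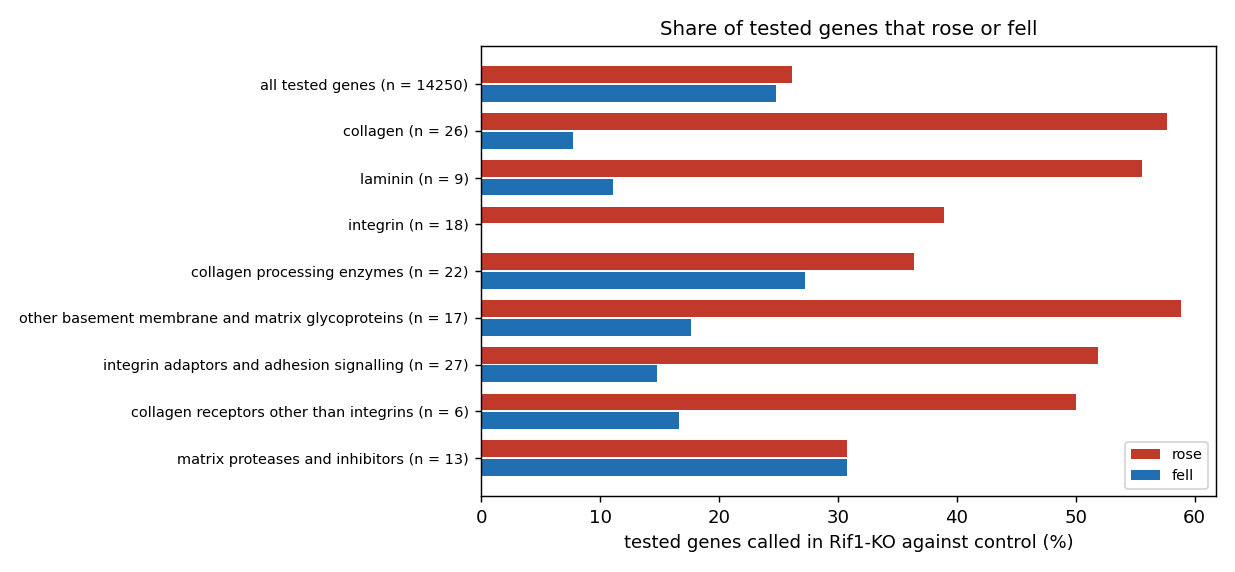
Percent of tested genes that rose (red) or fell (blue) in the libraries labelled Rif1-KO against control, for all tested genes, the 3 families and 5 lists of related genes; n is the number tested. All tested genes stand at 26.1% and 24.8%, collagens at 57.7% and 7.69%, and no integrin gene fell.

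Markers of other cell types were not all level between groups. Of 12 markers of primitive and parietal endoderm, cells known for laminin and collagen IV, 7 were tested, of which 5 rose and 1 fell, and all 12 summed to 36.96 to 38.99 CPM in the Rif1-KO-labelled libraries and 23.9 to 24.98 CPM in control. Dab2 averaged 13.1 ± 1.20 CPM in the Rif1-KO-labelled libraries and 3.87 ± 0.649 CPM in control, Gata6 2.85 ± 0.474 CPM in the Rif1-KO-labelled libraries and 1.54 ± 0.104 CPM in control, and Foxa2 and Sox7 were below 1 CPM in every library. Foxa2 and Sox7 were not tested. Foxa2 had 13 counts in the Rif1-KO-labelled libraries and 6 in control, with overlapping groups. Sox7 went the other way, with 3 counts in the Rif1-KO-labelled libraries and 14 in control. Its libraries labelled Rif1-KO all lay below the control libraries. The tested marker that fell was Srgn, at 3.06 ± 0.170 CPM in the Rif1-KO-labelled libraries and 4.97 ± 0.230 CPM in control. Of 8 trophectoderm markers 4 were tested, of which the keratins Krt8 and Krt18 rose and Krt7 fell. Cdx2 was at 0 in all libraries. All 8 summed to 165 to 178 CPM in the Rif1-KO-labelled libraries and 79.7 to 81.1 CPM in control. Of 11 fibroblast markers 4 were tested, of which 2 rose and 1 fell. Lum, Prrx1 and Twist2 were at 0. All 11 summed to 34.6 to 37.4 CPM in the Rif1-KO-labelled libraries and 26.4 to 34.4 CPM in control. Of 6 endothelial and blood markers 4 were tested, of which 2 rose (Tek and Kdr) and 1 fell (Pecam1). Cdh5 and Ptprc were at 0 or near 0. All 6 summed to 166 to 187 CPM in the Rif1-KO-labelled libraries and 223 to 233 CPM in control. Pecam1, the highest of them, averaged 130 ± 5.50 CPM in the Rif1-KO-labelled libraries and 209 ± 4.60 CPM in control. Tek averaged 41.5 ± 4.37 CPM in the Rif1-KO-labelled libraries and 17.2 ± 1.88 CPM in control. The 4 markers of two-cell-like cells in the table all rose and summed to 15.9 to 17.1 CPM in the Rif1-KO-labelled libraries and 0 to 0.364 CPM in control, 3 of them near-identical Zscan4 copies among which reads cannot be placed with certainty. The part of these cells in the changes of collagen, laminin and integrin genes was not tested.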

How the data were processed

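Each library's table, as deposited, holds raw counts of reads for 33924 gene symbols, made with STAR and featureCounts 1.6.2 on mm9 according to the submitters' processing notes. Which annotation and strand setting were used is not given in the sources used here. If strand was ignored, reads of overlapping antisense partners cannot be told apart.

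CPM was computed from the deposited counts with TMM-scaled library sizes. Genes passing filterByExpr were fitted in edgeR 4.0.16 (R 4.3.3) by the quasi-likelihood test on all 6 libraries, with a term for group and no other, and Benjamini-Hochberg adjustment over all 14250 tested genes. Log2 fold changes are Rif1-KO over control with standard errors, and other errors are SD of 3 libraries. Levels per kb used exon lengths from GENCODE M21 (GRCm38). Alternatives were other scalings, filters, DESeq2 1.42.0, limma-voom (limma 3.58.1), a replicate block, an offset for GC content and length, and each library left out. Floors of 3 counts and 95% intervals cover counting error only. Counts of replicate libraries differed beyond sampling noise (chi-square per degree of freedom 1.28 to 4.47). This cannot tell separate cultures from repeat preparations of 1 RNA.

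Members and lists were chosen with earlier results of these data known. Values in each library are given by a rule: per family, up to 5 genes that rose and 5 that fell by adjusted p with at least 1 CPM, the 3 highest in CPM and per kb, and the chains of collagen IV, early laminins and common integrins. From other lists up to 3 genes that passed were taken. Other genes were named after their values were seen. The values of 1 tested member are not reported here, although it is in the counts and sums.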

Additional observations from a re-analysis of the deposited data

How the results depend on the processing

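Of 30 called members 24 passed in all 16 alternatives, 6 lost the call in at least 1 (Col4a2, Col18a1, Col17a1, Lamc1, Itga4 and Itgb3) and none changed sign. The count of laminin genes that fell was 1 and became 0 with library totals alone, after adding a GC content and length offset, alone or together with the replicate block, and ran from 0 to 1 with 1 library left out. The other family counts stayed within 1.5 times. Of 23 members that did not pass, 4 passed in at least 1 alternative (Col9a2, Itga2b, Itga3 and Itga5). Signs changed among members that did not pass: Col9a3 turned to 0.0159 with library totals, to 0.000477 with a filter at a mean of 1 CPM, and to 0.11 and 0.10 with the offset, without and with the block. Col6a1 turned to 0.0237 and 0.0139. With 1 library left out the log2 fold change ran over −0.10 to 0.04996 for Col9a3, −0.29 to 0.10 for Col6a1, −0.47 to 0.25 for Col1a1, −0.16 to 0.22 for Col23a1, −0.42 to 0.0551 for Itga10, −0.0496 to 0.16 for Itgal, −0.33 to 0.0555 for Itgam and −0.00987 to 0.12 for Itgb5. The cause was not tested. Equal replicate numbers did not pair the libraries (correlations of deviations 0.0793, −0.0646 and 0.0461), and the replicate block gave 16 collagen, 5 laminin and 7 integrin genes that rose. DESeq2 called 1 fibroblast and 1 endothelial or blood marker that rose, against 2 each by edgeR. Members under 1.09 CPM are limited by depth.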

Other observations

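Enzymes that cut the matrix and their inhibitors were counted from a list that belongs to none of the 3 families. Among 13 tested genes 4 rose and 4 fell (30.8% each, against 26.1% and 24.8% of all tested genes), whereas DESeq2 called 3 that rose and 1 that fell. Timp3, an inhibitor of matrix metalloproteinases that stays bound to the matrix, had 32.9, 34.04 and 36.7 CPM in the Rif1-KO-labelled libraries, against 6.38, 4.74 and 4.76 CPM in control (log2 fold change 2.70 ± 0.12, adjusted p = 4.22e-13 by edgeR). Serpine2, an inhibitor of serine proteases, averaged 69.02 ± 4.66 CPM in the Rif1-KO-labelled libraries and 31.4 ± 0.836 CPM in control (log2 fold change 1.13 ± 0.07, adjusted p = 5.55e-11). Neither gene overlapped between groups. Timp1 and Timp2, inhibitors of the same family as Timp3, fell by 0.22 and 0.57 on the log2 scale (adjusted p = 0.0346 and 0.0171 by edgeR). The groups overlapped for Timp1. Mmp14 and Mmp2, a membrane-bound and a secreted metalloproteinase, rose by 0.47 and 0.27 on the log2 scale, and Mmp11 fell by 0.32.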
